A study of Mus musculus with 16 samples.

Results

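The genes described here are 10 genes of muscle protein breakdown: 5 that encode ubiquitin ligases of muscle (Fbxo32, Trim63, Fbxo30, Fbxo40 and Mul1) and 5 of autophagy and the lysosome (Bnip3, Ctsl, Gabarapl1, Sqstm1 and Map1lc3b). They were chosen by name, and every non-control probe whose RefSeq accession belongs to 1 of them was taken. That gave 14 probes for the 10 genes, out of 55681 probes and of 28972 genes that passed the filter on dim probes. Bnip3 had 3 probes, Fbxo30 and Trim63 had 2 each, and the others had 1. All 14 probes stood well above background on all 16 arrays and none was saturated, so no member was lost to the filter.

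Skeletal muscle breaks down its proteins by 2 routes. Ubiquitin ligases tag sarcomeric and regulatory proteins for the proteasome, and Fbxo32 (atrogin-1) and Trim63 (MuRF1) are the ligases long used as markers of wasting. In autophagy, a membrane that carries lipid-linked LC3 and GABARAP proteins wraps cytoplasm or mitochondria and delivers them to the lysosome, where cathepsins digest them. FoxO transcription factors, which insulin and Akt signalling hold out of the nucleus, are known to switch on genes of both routes in fasting and denervation.

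RNA came from dissected skeletal muscle of male mice aged 21 to 23 weeks, in 4 groups of 4 biological replicates with 1 one-colour array each. The knockout, labelled Skm-CB1R-/- and called CB1KO here, lost the cannabinoid 1 receptor gene Cnr1 by LoxP-flanked alleles and a Cre recombinase driven by the muscle actin promoter ACTA1. Its controls were littermates labelled Skm-CB1R+/+ (WT). Both genotypes were fed for 15 weeks either a standard diet (SD; 16.7% of energy as fat and 12.4% as sugar) or a diet high in both (HFHS; 49.2% and 32.2%), which makes the groups WT_SD, CB1KO_SD, WT_HFHS and CB1KO_HFHS. The labels write both genotypes as Cre-positive and floxed, so what separates them was taken from the titles. The diet tag of the CB1KO_SD and WT_HFHS samples disagrees with their titles, and the titles were followed. The treatment text also speaks of vehicle or S961, an insulin receptor antagonist, without saying which mice received it, and the muscle is not named. Since Cre was driven in muscle fibres, other cells of the dissected tissue keep the receptor.

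Of the spots that are not controls, at least 56.7% per array stood well above background. The diets lay on separate slides and cannot be told apart from them, while both genotypes were on each slide. On both slides the WT arrays lay in row 1 and the CB1KO arrays in row 2. Genotype and slide row therefore cannot be told apart. In the spread of their signal 2 arrays stood apart: CB1KO_SD replicate 2 had a log2 SD of 2.89 and CB1KO_HFHS replicate 1 of 3.97, where the rest had 3.14 to 3.69. The 15 skeletal muscle markers were all well above background on every array. Their mean level was 6.99 on CB1KO_HFHS replicate 1 and 7.74 to 8.58 on the other 15. That array also had the lowest slow fibre mean (-1.01) and the highest macrophage (1.86), adipocyte (4.75) and fibroblast (4.58) means of the 16, and 560 of 28890 genes lay at least 2 log2 units below every other array on it. On CB1KO_SD replicate 2, 215 genes lay at least 2 log2 units above every other array. That replicate was the lowest of the 16 arrays for Mul1, Ctsl, Gabarapl1 and Map1lc3b. Cnr1, the targeted gene, had 1 probe, and its genotype difference (CB1KO minus WT, log2) was -0.24 ± 0.46 (SE) on SD and -0.14 ± 0.46 on HFHS. WT_SD arrays ranged from -3.64 to -2.03 for Cnr1 and CB1KO_SD arrays from -3.69 to -2.23. The lowest level that stood well above background ranged from -5.22 to -2.74 between arrays, so Cnr1 lay near the floor. Whether that probe lies in the deleted part is also not known, so it does not check the knockout.

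Levels are log2 intensities relative to the 75th percentile of each array, so a level of 5 means an intensity 5 log2 units above that percentile. Levels are compared between arrays for 1 probe, never between probes. RNA was bulk, so fewer cells of a type and less RNA per cell cannot be told apart.

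The promoters show which of the known regulators' short motifs sit near these genes. RefSeq promoters of build GRCm38.p6, from 250 bases before to 50 after each start, were found for 9 of the 10 genes, all but Fbxo32. They were searched on both strands for the FoxO site TGTTTAC and for the E-box CACGTG, which is read by factors such as TFEB and the clock proteins. The FoxO site was present in 3.65% of all 32851 promoters of this length and the E-box in 7.15%. Among the members, Trim63 held the FoxO site, and Mul1, Bnip3 and Ctsl held the E-box. The 4 stretches around them are shown because they are the only matches among the 9 genes searched, 5′ to 3′ on the strand of the gene with the motif in capitals.

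Trim63: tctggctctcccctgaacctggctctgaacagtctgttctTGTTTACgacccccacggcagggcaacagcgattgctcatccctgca
Mul1: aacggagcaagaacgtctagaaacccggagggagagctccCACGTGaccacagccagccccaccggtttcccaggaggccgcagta
Bnip3: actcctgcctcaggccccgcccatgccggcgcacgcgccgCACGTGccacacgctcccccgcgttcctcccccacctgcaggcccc
Ctsl: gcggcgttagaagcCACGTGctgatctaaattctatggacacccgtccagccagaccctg

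The Trim63 stretch is chr4:134314886-134314972 on the plus strand, with the motif beginning 194 bases before the start. The Mul1 stretch is chr4:138434521-138434606 on the plus strand, with the motif 111 bases before the start. That of Bnip3 is chr7:138909569-138909654 on the minus strand, with the motif at 108 bases. That of Ctsl is chr13:64370711-64370770 on the minus strand, with the motif at 236 bases. These are matches of letters and no measure of binding, and a promoter with no match lacks only these letters in this window.

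The comparison of genotypes asks whether muscle without the receptor carries more or less RNA of the breakdown genes. None of the 10 passed limma's test, adjusted by Benjamini-Hochberg over all genes with a threshold of 0.05, in any of the 6 comparisons. Averaged over diets, 4 of the 5 ligases, Fbxo32, Trim63, Fbxo40 and Mul1, had lower levels in CB1KO at an unadjusted p under 0.05, with log2 fold changes between -0.51 and -0.31. In this comparison 0.763% of all genes passed the adjusted threshold, and 11.3% had an unadjusted p under 0.05 with a lower value. The median log2 fold change was -0.23 over the 10 members and -0.13 over all genes, of which 27.9% lay above 0. Quantile normalization gave -0.11 and -0.047, and normexp with quantile normalization -0.12 and -0.023. CB1KO_HFHS had the lowest mean of the 4 groups for 7 of the 10 genes, all 5 ligases together with Bnip3 and Gabarapl1, and for 47.1% of all genes. Without CB1KO_HFHS replicate 1 it did so for the same 7 genes and for 34.5% of all genes. Counts here use the brightest probe of each gene. By its other probe, Fbxo30 averaged lowest in WT_HFHS (-0.24), with CB1KO_HFHS at -0.18.

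**Figure D1:**
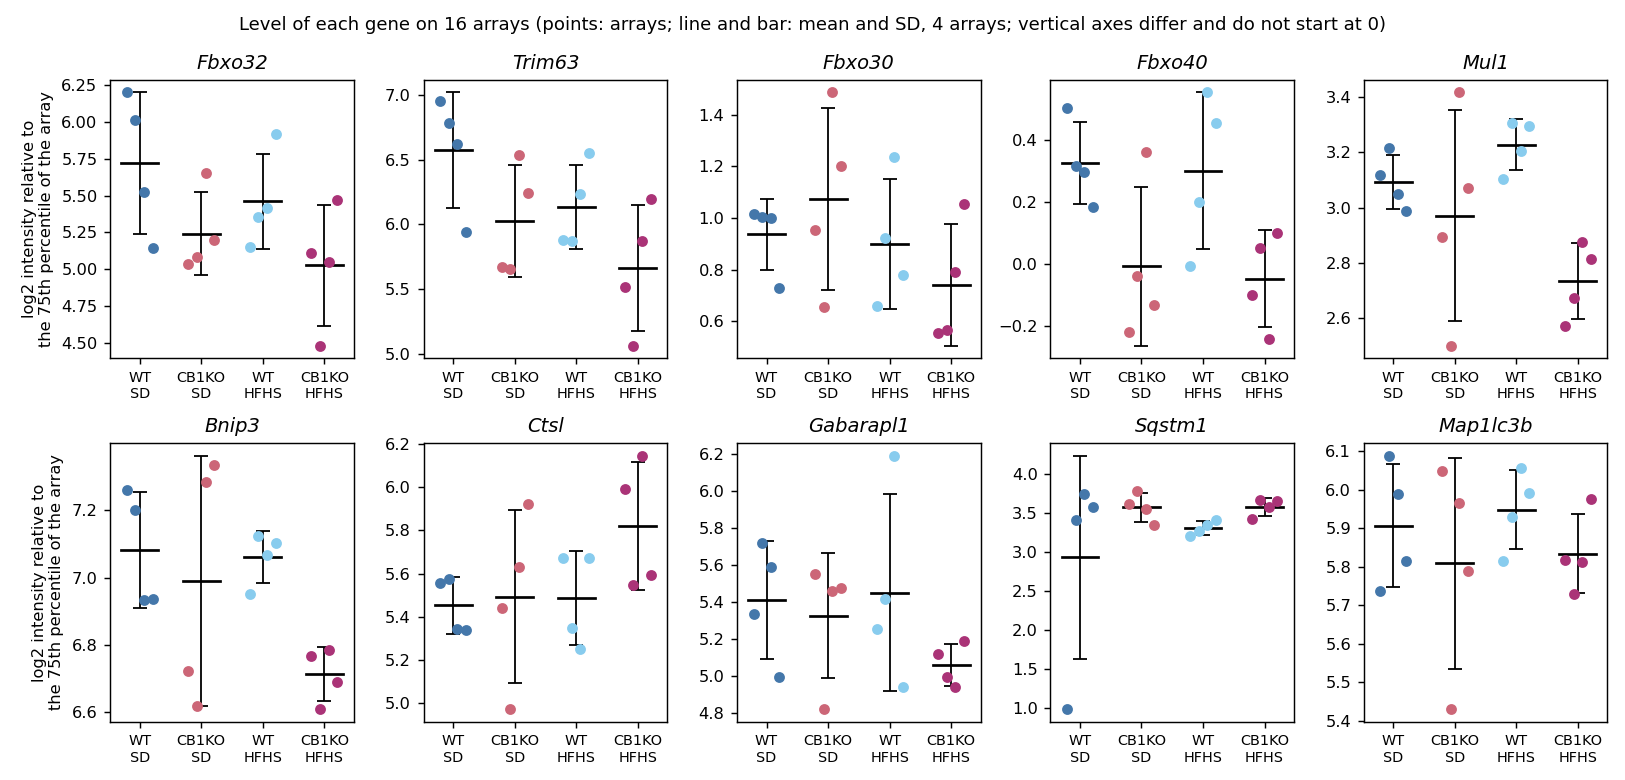
Level of each gene (log2 intensity relative to the 75th percentile of the array) on the 4 arrays of each group; points are arrays in replicate order, lines and bars the mean and SD of 4 arrays, and vertical axes differ between genes. For Mul1 and Bnip3 every CB1KO_HFHS array lies below every WT_HFHS array, while WT_SD replicate 1 stands alone at 0.98 for Sqstm1.

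Fbxo32 encodes the F-box subunit of a ligase complex that targets MyoD and translation factors. Its levels were 6.20, 6.02, 5.53 and 5.14 on the WT_SD arrays and 5.03, 5.08, 5.65 and 5.20 on the CB1KO_SD arrays, in replicate order. On HFHS they were 5.15, 5.36, 5.42 and 5.92 in WT and 5.11, 4.48, 5.05 and 5.47 in CB1KO. The genotypes overlapped on both diets, and 7 of the 8 CB1KO arrays lay below the WT mean of their diet. The genotype effect, as a log2 fold change with WT as the base, was -0.48 ± 0.26 (SE) on SD (limma, adjusted p = 0.642) and -0.43 ± 0.26 on HFHS (adjusted p = 0.651). Averaged over diets it was -0.46 ± 0.19, or 0.729-fold (95% interval -0.86 to -0.06, adjusted p = 0.272 in limma). The Fbxo32 probe is spotted 10 times on each array. The SD between those spots had a median of 0.0388 over the 16 arrays, against a pooled SD of 0.383 between arrays of a group, so spot noise was small beside the spread between arrays.

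Trim63 encodes a RING-finger ligase of the sarcomere that tags myosin and other thick-filament proteins. Its brighter probe, which stands for the gene, measured 6.95, 6.79, 6.62 and 5.94 in WT_SD and 5.67, 5.66, 6.53 and 6.25 in CB1KO_SD. On HFHS it measured 5.88, 5.88, 6.24 and 6.55 in WT and 5.52, 5.06, 5.87 and 6.20 in CB1KO. As for Fbxo32, the groups overlapped on each diet and 7 of 8 CB1KO arrays lay below the WT mean of their diet. The log2 fold change was -0.55 ± 0.29 on SD, -0.47 ± 0.29 on HFHS and -0.51 ± 0.21 averaged (0.703-fold, 95% interval -0.95 to -0.07; limma, adjusted p = 0.268). The second Trim63 probe had the same sign in each, at -0.63 ± 0.32, -0.21 ± 0.32 and -0.42 ± 0.22. On that probe WT_SD averaged 3.48 ± 0.36 (SD, n = 4) and WT_HFHS 2.69 ± 0.31, a diet difference of -0.79 ± 0.32 (SE) that did not pass (limma over all probes, adjusted p = 0.793).

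Fbxo32 and Trim63 varied together from array to array. Over the 16 arrays their levels had a Pearson r of 0.939 and a Spearman rho of 0.926, and r was 0.885 without CB1KO_HFHS replicate 2 and WT_SD replicate 1, the arrays farthest from the Fbxo32 median. With the group means subtracted, r was 0.912, and with any 1 array left out it stayed between 0.883 and 0.933. Among 17301 genes with a symbol, each was the second most like gene to the other by this measure within groups. WT_SD replicate 1 was the highest array for both genes and CB1KO_HFHS replicate 2 the lowest. The arrays share sample, labelling and scaling, so the correlation is a description. Within the WT_SD group, replicate 4 was lowest for both, at 5.14 and 5.94.

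**Figure D2:**
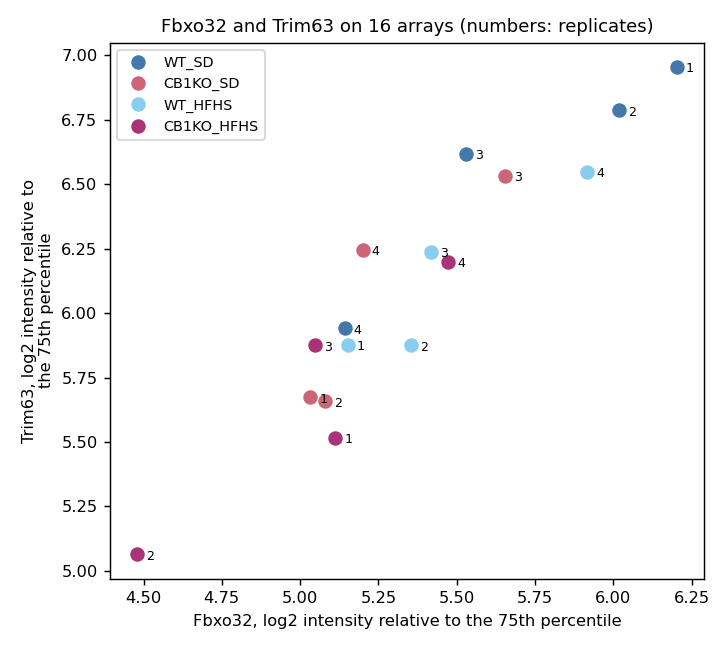
Trim63 against Fbxo32 on 16 arrays, both as log2 intensity relative to the 75th percentile of the array; colours mark the groups and numbers the replicates. Both genes are highest on WT_SD replicate 1 (6.20 and 6.95) and lowest on CB1KO_HFHS replicate 2 (4.48 and 5.06), and r over all arrays is 0.939.

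Fbxo40 is a muscle F-box protein that was described as a ligase for the insulin receptor substrate IRS1. It measured 0.50, 0.32, 0.30 and 0.18 in WT_SD and -0.22, -0.04, 0.36 and -0.13 in CB1KO_SD. On HFHS it measured -0.01, 0.20, 0.55 and 0.45 in WT and -0.10, 0.05, -0.24 and 0.10 in CB1KO. On SD only replicate 3 of CB1KO reached the WT range, and on HFHS the overlap came from WT replicate 1. The log2 fold change was -0.33 ± 0.16 on SD and -0.35 ± 0.16 on HFHS, nearly the same on both diets, and -0.34 ± 0.11 averaged (0.790-fold, adjusted p = 0.175 in limma), the smallest adjusted p of the 10 in that comparison.

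Mul1 encodes a ligase of the outer mitochondrial membrane that tags mitofusin and takes part in mitophagy, the removal of mitochondria. On HFHS it measured 3.10, 3.31, 3.21 and 3.30 in WT and 2.57, 2.67, 2.88 and 2.81 in CB1KO, with no overlap. On SD it measured 3.12, 3.21, 3.05 and 2.99 in WT and 2.89, 2.50, 3.42 and 3.07 in CB1KO, which spanned the WT values. The log2 fold change was -0.49 ± 0.16 on HFHS (0.710-fold, adjusted p = 0.306 in limma) and -0.12 ± 0.16 on SD. With array weights, which count noisier arrays less, 2328 of 28972 genes passed on HFHS, 1402 of them lower, against 72 without weights. In that fit the HFHS value of Mul1 was -0.46 and passed (adjusted p = 0.0157 in limma), the 1 call on a member in any fit. The interaction, the difference between these genotype effects, was -0.37 ± 0.23 and did not pass (adjusted p = 1.00).

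Fbxo30 (MUSA1), a ligase that BMP signalling restrains in denervated muscle, had a log2 fold change of 0.14 ± 0.19 on SD, -0.16 ± 0.19 on HFHS and -0.01 ± 0.13 averaged. Its arrays ranged from 0.73 to 1.02 in WT_SD, from 0.66 to 1.49 in CB1KO_SD, from 0.66 to 1.24 in WT_HFHS and from 0.55 to 1.06 in CB1KO_HFHS, so all 4 groups overlapped. Its other probe had a value of 0.15 ± 0.17 on SD and 0.06 ± 0.17 on HFHS, so the probes disagreed in sign on HFHS.

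Of the autophagy and lysosomal genes, 2 of 5 did not overlap between genotypes on HFHS, Bnip3 (by its standing probe) lower and Sqstm1 higher in CB1KO. With Mul1 that made 3 of the 10 members, against 10.1% of all genes without overlap in this comparison, 3.16% higher and 6.92% lower. No member passed on HFHS, where 0.249% of all genes did, and 3 had an unadjusted p under 0.05 (Mul1, Fbxo40 and Bnip3, each with a negative value), against 5.97% of all genes with a negative value.

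Bnip3 encodes a receptor on the mitochondrial surface that binds LC3 proteins and marks mitochondria for autophagy. On HFHS its standing probe measured 6.95, 7.12, 7.07 and 7.10 in WT and 6.77, 6.61, 6.79 and 6.69 in CB1KO. On SD the values were 7.26, 7.20, 6.93 and 6.94 in WT and 6.72, 6.62, 7.28 and 7.33 in CB1KO. The CB1KO_SD arrays thus fell into a low and a high pair on either side of the WT values. The log2 fold change was -0.35 ± 0.16 on HFHS (0.786-fold, adjusted p = 0.523 in limma), and the other 2 probes gave -0.36 ± 0.16 and -0.39 ± 0.15. On the last of these the genotypes overlapped, the highest CB1KO_HFHS array lying above the lowest WT_HFHS array. On SD it was -0.09 ± 0.16, a value whose sign turned under quantile normalization (0.01) and without CB1KO_SD replicate 2 (0.03).

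Sqstm1 encodes p62, an adaptor that links ubiquitin-tagged cargo to LC3 and is itself consumed by autophagy. It measured 0.98, 3.41, 3.75 and 3.58 in WT_SD and 3.62, 3.79, 3.56 and 3.34 in CB1KO_SD. On HFHS it measured 3.21, 3.27, 3.35 and 3.41 in WT and 3.43, 3.67, 3.58 and 3.66 in CB1KO. All 8 CB1KO arrays lay above the WT mean of their diet, but on SD that mean was set by replicate 1. The log2 fold change was 0.65 ± 0.44 on SD and -0.0032 without WT_SD replicate 1. On HFHS it was 0.27 ± 0.44, with the SE drawn up by the same array, since all groups share 1 estimate of the spread. The averaged value was 0.46 ± 0.31 (limma, adjusted p = 0.511) and 0.13 without that array. The processed intensity of the Sqstm1 spot on WT_SD replicate 1 was 1067, against 5213 to 10541 on the other 15 arrays. On that array 76 of 28890 genes lay at least 2 log2 units below every other array, and Sqstm1 was the only member among them. Why this spot was dim was not tested.

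Ctsl encodes cathepsin L, a lysosomal protease that many cell types express. It measured 5.67, 5.35, 5.25 and 5.67 in WT_HFHS and 5.99, 5.54, 6.15 and 5.59 in CB1KO_HFHS, and in both SD groups it lay between 4.97 and 5.92. All 4 CB1KO_HFHS arrays lay above the WT_HFHS mean, though the groups overlapped. The log2 fold change was 0.33 ± 0.20 on HFHS (limma, adjusted p = 0.647) and 0.04 ± 0.20 on SD. Macrophages are rich in this protease, and the values of their markers in this comparison were mostly positive: the mean level of 16 macrophage markers ranged from 0.82 to 1.86 in CB1KO_HFHS and from 0.12 to 0.98 in WT_HFHS. Of the 16, 15 had a positive HFHS value, 7 with an unadjusted p under 0.05 (3.42% of all genes had one with a positive value), and none passed. On SD the ranges were 0.13 to 1.68 in WT and 0.06 to 1.16 in CB1KO. All but Cd163, seen above background on 11 arrays, were well above background on all 16. Over the 16 arrays with group means subtracted, the macrophage mean had an r of 0.24 with Ctsl, and of -0.68 with Fbxo40, -0.60 with Trim63, -0.57 with Fbxo32, -0.55 with Fbxo30 and -0.38 with Mul1. All 5 ligases thus ran lower where these markers ran higher, in arrays that share sample and scaling. The sign was not particular to the ligases. The r was -0.27 for Gabarapl1, -0.19 for Bnip3 and -0.18 for Map1lc3b, and 0.15 for Sqstm1. With the log2 SD of the array, Ctsl had an r of 0.69, and of 0.68 with group means subtracted. By the latter measure the other members ran from -0.09 for Fbxo40 to 0.66 for Map1lc3b. On HFHS 9 of 10 fibroblast and 8 of 10 adipocyte markers also had positive values, against 31.4% of all genes. The parts of macrophages, of other cells and of signal spread in the member values were not tested.

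Gabarapl1, an LC3 relative needed late in autophagosome formation, measured 5.25, 5.42, 6.19 and 4.94 in WT_HFHS and 5.12, 4.99, 4.94 and 5.19 in CB1KO_HFHS. The spread in WT_HFHS was set by replicate 3, the highest of all 16 arrays. Its log2 fold change was -0.39 ± 0.25 on HFHS and -0.14 without that array, -0.08 ± 0.25 on SD and -0.24 ± 0.18 averaged. Map1lc3b, which encodes LC3B, the membrane protein used to count autophagosomes, was the steadiest of the 10. It ranged from 5.43 to 6.09 over all 16 arrays, with log2 fold changes of -0.10 ± 0.14 on SD and -0.11 ± 0.14 on HFHS. The signs of its SD and averaged values turned under quantile normalization (0.02 and 0.0070). Its 95% interval for the averaged effect, -0.32 to 0.10, is the narrowest of the 10.

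**Figure D3:**
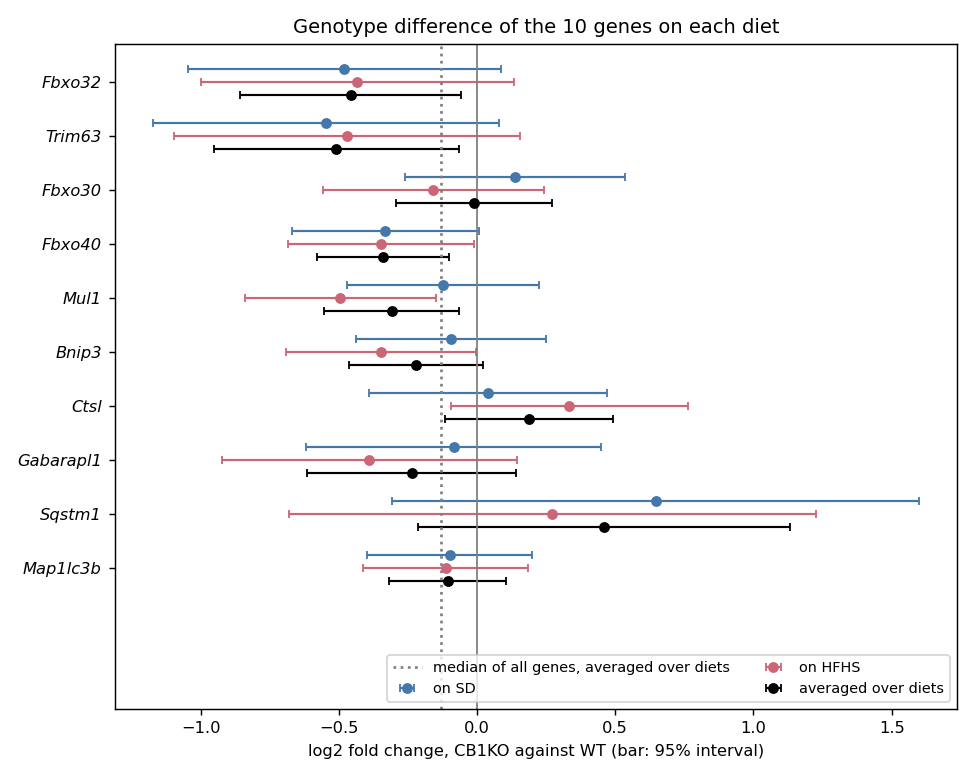
Genotype effect (log2 fold change, CB1KO relative to WT) for the 10 genes on SD, on HFHS and averaged over diets; points are limma estimates, bars their 95% intervals, the solid line is 0 and the dotted line the median of all genes (-0.13). The averaged intervals of Fbxo32, Trim63, Fbxo40 and Mul1 lie below 0 before adjustment, and that of Sqstm1, -0.21 to 1.13, is the widest.

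On SD no member passed, had an unadjusted p under 0.05 or stood without overlap. In limma 0.00345% of all genes passed there, 9.03% had an unadjusted p under 0.05, and 4.21% had groups without overlap. The median over the members was -0.10, beside -0.12 over all genes. It turned to 0.033 without CB1KO_SD replicate 2, to 0.015 with quantile normalization and to 0.021 with array weights. The mean level of 11 slow fibre markers ranged from 3.53 to 4.82 in CB1KO_SD and, more widely, from -0.77 to 3.17 in WT_SD. None of the 11 passed in limma, 4 had an unadjusted p under 0.05 with a positive value (2.18% of all genes), and all 11 values were positive. On HFHS the same means overlapped, from -1.01 to 4.74 in CB1KO and from 0.012 to 5.03 in WT. With group means subtracted, the slow fibre mean had an r of -0.56 with Fbxo32, -0.46 with Ctsl, -0.33 with Trim63 and -0.28 with Bnip3. For the other members r ran from 0.01 for Fbxo40 to 0.47 for Sqstm1. Fibre types differ in protein turnover, and the part of fibre makeup in the member values was not tested.

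The interaction asks whether diet alters the genotype effect. Its values ran from -0.37 ± 0.63 for Sqstm1 to 0.29 ± 0.28 for Ctsl. No member passed in limma or had an unadjusted p under 0.05, against 0% and 3.63% of all genes. Fbxo32, at 0.05 ± 0.37, and Trim63, at 0.08 ± 0.41, had almost equal genotype effects on both diets, with 95% intervals from -0.75 to 0.85 and from -0.81 to 0.96 that leave sizeable differences possible.

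HFHS feeding was compared with SD within each genotype, with slide and diet changing together. In WT, Trim63 had a value of -0.44 ± 0.29 and Fbxo32 -0.26 ± 0.26, Sqstm1 0.38 ± 0.44 (-0.27 without WT_SD replicate 1), and the other 7 lay between -0.04 and 0.14. In CB1KO the values ran from -0.36 ± 0.29 for Trim63 and -0.33 ± 0.19 for Fbxo30 to 0.33 ± 0.20 for Ctsl. In limma no member passed in WT (0% of all genes) or in CB1KO (0.0276%). By the standing probes none had an unadjusted p under 0.05, against 6.06% and 9.59% of all genes. The second Trim63 probe did in WT (-0.79 ± 0.32), and another Bnip3 probe did in CB1KO (-0.40 ± 0.15). Neither of these probes passed in limma over all probes. All groups overlapped in both comparisons, where 5.39% and 3.73% of all genes did not. The diet comparisons share arrays with the genotype comparisons.

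The rest of the pathway was read from lists of its genes, averaged over diets unless stated. As background, 3.73% of all genes had an unadjusted p under 0.05 with a positive value in that comparison, beside the 11.3% with a negative one. Of 42 other ubiquitin ligases and ubiquitin genes of muscle, none passed in limma, and 11 had an unadjusted p under 0.05, 2 higher and 9 lower. The median was -0.14. Trim54 (MuRF3), a sarcomeric relative of Trim63, had a value of -0.31 ± 0.07 (adjusted p = 0.0628) and Cul3, a cullin scaffold, -0.43 ± 0.10 (0.0718). Asb2, a muscle cullin adaptor, was at -0.57 ± 0.16 on SD (adjusted p = 0.317).

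Of 41 proteasome subunits measured, 1 passed: Psmd8, a subunit of the regulatory cap, fell by 0.43 ± 0.09 on the log2 scale (limma, adjusted p = 0.0390), where 0.452% of all genes passed with a negative value. The call held when replicate 2 or 3 of CB1KO_SD, replicate 3 of WT_HFHS or replicate 1 of CB1KO_HFHS was left out. It was lost without any 1 of the other 12 arrays, where the value lay between -0.45 and -0.39 and the adjusted p reached 0.0962. The activator Psme4 was at -0.53 ± 0.12 (adjusted p = 0.0696) and the cap subunit Psmd2 at -0.31 ± 0.10. The median of the subunits was -0.10, and 0.01 with quantile normalization.

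None of 43 autophagy genes passed in limma, and 9 had an unadjusted p under 0.05, all with negative values. Among them were Ulk1, the kinase that starts autophagy, at -0.41 ± 0.13, its partner Atg13 at -0.48 ± 0.14 and the lipid scramblase Atg9a at -0.45 ± 0.13 (adjusted p = 0.170, 0.120 and 0.117). Optn, a cargo receptor like Sqstm1, was at -0.47 ± 0.15 on HFHS. The median of this list was -0.08, closer to 0 than that of all genes. Of 16 mitophagy and mitochondrial dynamics genes none passed and 2 had an unadjusted p under 0.05: Fundc1, an LC3-binding receptor as Bnip3 is, at -0.41 ± 0.13, and Marchf5, a mitochondrial ligase as Mul1 is, at -0.25 ± 0.11.

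Of 34 lysosomal genes and regulators none passed in limma, and 5 had an unadjusted p under 0.05, 1 higher and 4 lower. Lgmn, a lysosomal protease of macrophages and other cells, was at 0.91 ± 0.27 on HFHS, the diet on which 15 of the 16 macrophage markers had positive values, and their part in it was not tested. Gaa, the acid glucosidase that digests glycogen, was at -0.34 ± 0.12, and Lamp1, a lysosomal membrane protein, at -0.22 ± 0.09. Of 41 regulators in the FoxO, insulin and glucocorticoid list none passed, and 10 had an unadjusted p under 0.05, 5 in each direction. Irs2, which carries the insulin signal, was at 0.55 ± 0.17, Foxo6 at 0.47 ± 0.13 and Igf2 at 1.33 ± 0.34, the last of these above background on 3 of the 4 WT_SD arrays. Foxo1, chosen after its value was seen as the FoxO factor best known in atrophy, was at -0.04 ± 0.13, and Foxo3 at -0.63 ± 0.31 (adjusted p = 0.359). None of 8 calpains and caspases passed, and Capn3, the muscle calpain, was at -0.26 ± 0.10.

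Of the list of genes linked to denervation and disuse of muscle, those that passed were all higher in CB1KO. Of 24 measured, 6 rose in CB1KO averaged over diets and none fell, and 16 had an unadjusted p under 0.05, all higher, with a list median of 0.70. Of all genes 0.311% passed with a positive value. The list was chosen with earlier results of these data known, so its counts beside these shares are no independent test. None of the 24 passed on SD, and 3 passed on HFHS, all higher, where 0.176% of all genes did. Sln, the sarcolipin gene, rose by 4.27 ± 0.50 on the log2 scale (limma, adjusted p = 0.00220), Chrna1, the acetylcholine receptor alpha subunit, by 1.92 ± 0.31 (0.0162), and Mt2, a metallothionein, by 2.17 ± 0.39 (0.0278). The others, named because they passed, were Gadd45a at 0.64 ± 0.12, Cdkn1a at 1.53 ± 0.29 and Mt1 at 1.61 ± 0.32. The 3 on HFHS were Sln at 5.85 ± 0.71, Chrna1 at 2.59 ± 0.44 and Gadd45a at 1.09 ± 0.17, against 2.68 ± 0.71, 1.25 ± 0.44 and 0.19 ± 0.17 on SD. Their interactions with diet did not pass (limma, adjusted p = 1.00 for each). The count of 3 was 1 without replicate 1 or 2 of WT_HFHS or replicate 3 or 4 of CB1KO_HFHS, and 5 without replicate 1 of CB1KO_HFHS. Averaged over diets, Fbxo32 and Trim63, which denervation is known to raise, had values of -0.46 ± 0.19 and -0.51 ± 0.21 that did not pass. The state of innervation was not tested. The count of 6 was 2 when replicate 1 of WT_SD, replicate 1 or 4 of WT_HFHS, or replicate 3 or 4 of CB1KO_HFHS was left out. It was 3 when replicate 3 of WT_SD, replicate 4 of CB1KO_SD or replicate 2 of WT_HFHS was. Sln and Chrna1 passed whichever of the 16 arrays was left out. The Mt2 call was lost without WT_SD replicate 1 or 3, WT_HFHS replicate 1 or 4, or CB1KO_HFHS replicate 3 or 4, with values from 1.96 to 2.16 and an adjusted p of at most 0.0693.

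**Figure D4:**
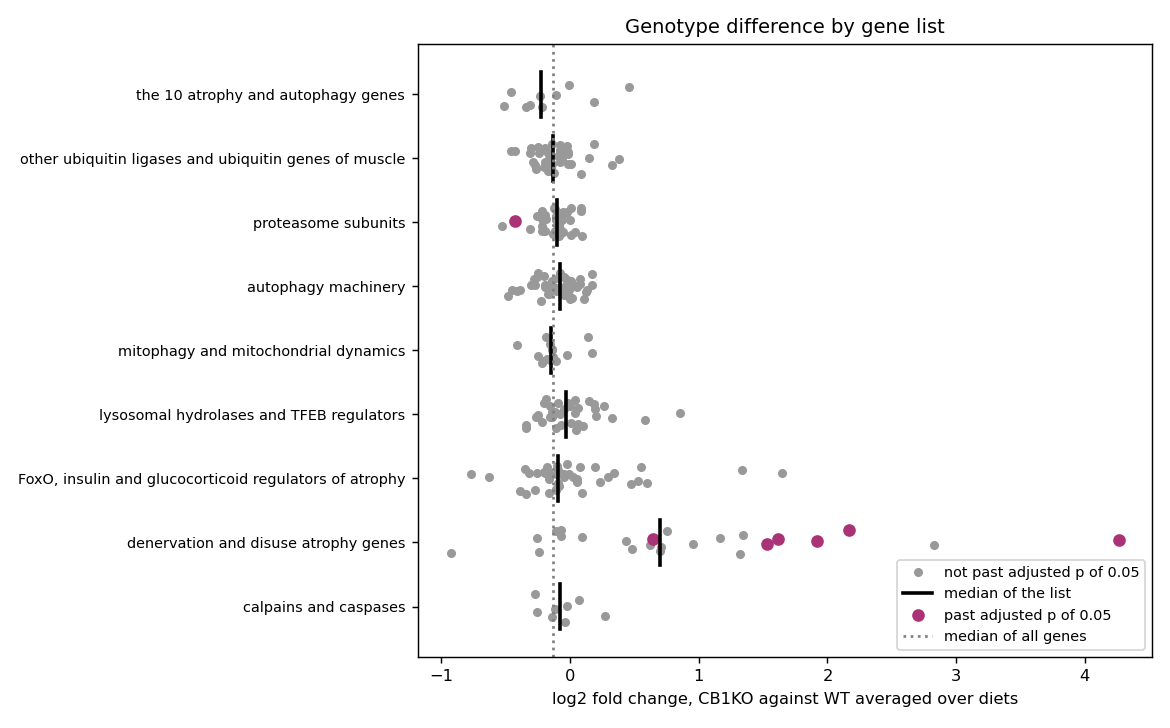
Genotype effect (log2 fold change, CB1KO relative to WT) averaged over diets for the genes of each list; each point is 1 gene, black bars are list medians, the dotted line is the median of all genes (-0.13), and coloured points passed an adjusted p of 0.05 in limma. The coloured points are Psmd8 and 6 genes of the denervation and disuse list, and none of the 10 members is coloured.

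The genes whose pattern came closest to each member were sought over the 16 arrays with the group means subtracted, 3 per member, and their r ran from 0.789 to 0.987. For Fbxo32 they were Ikzf2 (0.929), Trim63 (0.912) and Naa40 (0.906), and for Trim63 they were Tmcc1 (0.915), Fbxo32 and Kdm3a (0.899). For Bnip3 they were Prelid3b (0.975), Ppp2r2d (0.968) and Atg4d (0.968), the last a protease that processes LC3 relatives, with r of 0.963, 0.965 and 0.960 when group means were kept. Mul1 was closest to Furin (0.967), Lrrc47 (0.962) and Pgp (0.954). Sqstm1 was closest to Zbtb22, Shmt2 and Metap1d (0.987 to 0.986), a likeness that rested on WT_SD replicate 1, since without it these r were 0.824, 0.646 and 0.614. Ctsl was closest to Zmym3 (0.939), Map1lc3b to Cyth2 (0.918), Fbxo30 to Otulin (0.917) and Fbxo40 to Coa7 (0.866). Among the members themselves the next highest r within groups after that of Fbxo32 and Trim63 were 0.794 between Fbxo30 and Mul1 and 0.788 between Mul1 and Bnip3.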

How the data were processed

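Cy3-labelled cRNA from 200 ng of total RNA was hybridised to one-colour Agilent arrays. Per the file headers, Feature Extraction 11.5.1.1 produced the scanner files, which give each spot's intensity as a background-corrected processed signal and as a median signal. The series table, also deposited, gives each spot a score: its log2 processed intensity, centred on the array's mean and scaled by the array's SD. Other steps are not given in the sources used here.

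Here the log2 processed intensity was set relative to the 75th percentile of its array. Control spots were dropped, spots marked as outliers were made missing (0.0177% of values), and a probe's repeated spots were averaged. A probe had to be well above background on 4 or more arrays, and a gene was represented by its brightest probe. The accession in the file gave a RefSeq symbol for 28026 of 55681 probes. One fit covered the 16 arrays, with a mean for each group (limma 3.58.1 under R 4.3.3, functions lmFit and eBayes). Tests were two-sided, and p-values were adjusted over 28972 genes by Benjamini-Hochberg. The number of arrays limits the precision.

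The members, the gene lists and the tests were chosen with earlier results of these data known. Of 335 list entries 331 were tested. Genes named are the members and, per list, up to 3 with the smallest averaged p and up to 2 with the smallest p on either diet, of which not all are printed, and some results are not reported here. The genes most like each member, 3 for each, were ranked by Pearson r. Foxo1, Foxo3, Gadd45a, Cdkn1a and Mt1 were added after their values were seen. Alternatives changed the background and scaling (normexp with offset 50 and quantile, quantile alone, the deposited scores times 3.48), the filter (none, or every array), outlier spots, how probes of a gene combine, the variance model, array weights, blocks for replicate or slide, a covariate for signal spread, the groups fitted, and which arrays were included. In data simulated for 28972 genes, the averaged comparison recovered 56% of genes changed by 1 and 79% of genes changed by 2 on the log2 scale, that on SD 41% and 72%, and that on HFHS 41% and 69%.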

Additional observations from a re-analysis of the deposited data

Results flagged for a closer look

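A sample far from the other 3 of its group was found in 3 of the 56 combinations of probe and group tested, and chance alone gives about 1 in 20. Sqstm1 measured 0.98 on WT_SD replicate 1, below the 3.41 to 3.75 of the other WT_SD arrays. Gabarapl1 measured 4.82 on CB1KO_SD replicate 2, below the 5.46 to 5.55 of the other arrays of that group. Fbxo30 measured 0.73 on WT_SD replicate 4, below 1.00 to 1.02 on the other 3.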

How the results depend on the processing

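The averaged values of Fbxo32, Trim63, Fbxo40 and Mul1 stayed negative in every fit run. With each array left out in turn they ran from -0.55 to -0.37 for Fbxo32, -0.61 to -0.41 for Trim63, -0.40 to -0.30 for Fbxo40 and -0.38 to -0.23 for Mul1. The count of members called was 0 in all 6 comparisons in every alternative but array weights. With these it was 1 on HFHS (Mul1), where 2328 of 28972 genes passed. Replicate numbers match slide columns. The r of deviations ran from -0.75 to 0.61 over 24 same-numbered pairs of arrays, with a median of -4.4e-05. Over 72 pairs with different numbers it ran from -0.70 to 0.66, with a median of -0.012. With the replicate block 0 members were called in each comparison, the denervation count was 3 instead of 6, and the Psmd8 and Mt2 calls were lost (-0.43 and 2.17, adjusted p = 0.102 and 0.0553 in limma). With array weights the denervation count was 14, and with the signal spread as a covariate or without both arrays of unusual spread it was 10. Psmd8 also missed the threshold with quantile normalization (-0.31), the deposited scores (-0.38) and no filter (-0.43). Over all genes the averaged comparison called 221, but 388 with normexp and quantile normalization, which moved the median gene from -0.13 to -0.02, 369 with quantile normalization alone, 350 with trended variances, 870 without both unusual arrays, 1734 with the spread covariate and 2241 with array weights. It called 59 with the replicate block and 133 with no filter. With 1 array left out the count ran from 59 (WT_HFHS replicate 2) to 610 (CB1KO_SD replicate 2). It lay at 115 or below without WT_SD 1 or 3, CB1KO_SD 1 or 4, WT_HFHS 1, 2 or 4, or CB1KO_HFHS 2, 3 or 4, and was 360 without CB1KO_SD 3 and 332 without CB1KO_HFHS 1. Most members lay near 0 in some comparison, and there the sign turned, with the cause not tested. Sqstm1 also turned from larger values when WT_SD replicate 1 was left out. Its value went from 0.65 to -0.0032 on SD, 0.38 to -0.27 for diet in WT and -0.37 to 0.28 for the interaction.

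On SD the value turned positive for Bnip3 with quantile normalization (0.011), array weights (0.13) and without both unusual arrays (0.031), and for Gabarapl1 with quantile normalization (0.037) and without both arrays (0.084). It did so for Map1lc3b with normexp (0.054), quantile normalization (0.019) and without both arrays (0.028), and for Mul1 with array weights (0.072) and without both arrays (0.034). Leaving out 1 array gave -0.21 to 0.031 for Bnip3, -0.22 to 0.084 for Gabarapl1, -0.18 to 0.028 for Map1lc3b, -0.27 to 0.034 for Mul1, -0.10 to 0.21 for Ctsl, -7.7e-05 to 0.28 for Fbxo30 and -0.0032 to 0.92 for Sqstm1. Averaged over diets, Fbxo30 turned positive with normexp (0.034), quantile normalization (0.0085), the deposited scores (0.074), the mean of its probes (0.046), array weights (0.097) and without both arrays (0.091), and ranged from -0.079 to 0.059 with 1 array left out. Map1lc3b turned positive with normexp (0.022) and quantile normalization (0.0070), and Capns1, the small calpain subunit, with normexp (0.00045).

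For diet in WT, Bnip3 turned positive with quantile normalization (0.010) and array weights (0.051), and Fbxo30 (0.017) and Fbxo40 (0.061) with the deposited scores. Ctsl turned negative with normexp (-0.065), the deposited scores (-0.12) and the spread covariate (-0.079). Gabarapl1 turned with the same 3 (-0.021, -0.11 and -0.058) and array weights (-0.085), and Map1lc3b with the deposited scores (-0.13), array weights (-0.0071) and the covariate (-0.028). Ranges with 1 array left out were -0.071 to 0.038 for Bnip3, -0.030 to 0.11 for Ctsl, -0.15 to 0.043 for Fbxo30, -0.11 to 0.078 for Fbxo40, -0.21 to 0.21 for Gabarapl1, -0.016 to 0.10 for Map1lc3b and -0.27 to 0.65 for Sqstm1. For diet in CB1KO, Fbxo40 turned with the deposited scores (0.10), Sqstm1 with quantile normalization (-0.018) and the deposited scores (-0.078), and Map1lc3b with the deposited scores (-0.18), array weights (-0.058), the covariate (-0.067) and without both arrays (-0.095). Ranges were -0.11 to 0.083 for Fbxo40, -0.10 to 0.11 for Map1lc3b and -0.074 to 0.075 for Sqstm1. The interaction turned for Fbxo32 with array weights (-0.041) and without both arrays (-0.034), for Fbxo40 with normexp (0.029) and the deposited scores (0.043), and for Sqstm1 with array weights (0.017). Its ranges were -0.11 to 0.24 for Fbxo32, -0.10 to 0.29 for Trim63, -0.12 to 0.11 for Fbxo40, -0.14 to 0.065 for Map1lc3b and -0.65 to 0.28 for Sqstm1.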
